A study of Mus musculus with 12 samples.

Results

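The genes described here are the retinoid storage and metabolism genes of the mouse liver, chosen by name: Rbp4, Lrat, Rdh16, Rdh11, Dhrs3, Aldh1a1, Aldh1a7, Cyp26a1 and Cyp26b1. All 9 were found among the 54532 genes of the deposited table, and all 9 were among the 11083 genes tested, those with a mean of at least 1 FPKM (fragments of the library scaled by its size and by the gene length in kilobases). The livers came from male C57BL/6J mice that started their diets at 5 weeks of age and stayed on them for 26 weeks. ND-fed mice received a normal diet, control mice a high-fat diet, HYA-treated mice the high-fat diet with 1% HYA, and LA-treated mice the high-fat diet with 1% LA, with 3 mice in each group. Gut lactic acid bacteria form HYA from linoleic acid (LA), and HYA carries a hydroxyl group where LA has a double bond. The labels do not say whether mice of a group shared a cage or a litter, so the p-values measure the spread between these mice.

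The liver is the main store of vitamin A. Retinol reaches other tissues on the plasma carrier RBP4, which hepatocytes secrete, whereas stellate cells hold most retinyl esters, which LRAT makes from retinol. Dehydrogenases convert retinol to retinal, DHRS3 converts retinal back to retinol, enzymes of the ALDH1A family oxidize retinal to retinoic acid, and CYP26 enzymes break retinoic acid down. Transcription of Cyp26a1 and Dhrs3 is known to increase when retinoic acid binds its nuclear receptors.

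Between 17169064 and 25220880 fragments fell on genes in each mouse, and 3 fragments on a gene of 2 kb corresponded to 0.0607 to 0.0944 FPKM. The lowest value among the 9 genes rested on 24 fragments, so counting error was small beside the spread between mice. The labelled tissue was checked by its markers. Summed FPKM of 6 hepatocyte markers was 34775 to 36250 in ND-fed mice, 22973 to 26121 in control mice, 28918 to 29968 in HYA-treated mice and 25276 to 26032 in LA-treated mice, and all 6 markers were lower in control than in ND-fed mice. Of 6 activated stellate cell markers, 5 were tested and all 5 increased in control mice relative to ND-fed mice, with sums of 31.0 to 49.0 against 5.16 to 7.14 FPKM. The sums were 16.6 to 22.7 in HYA-treated mice, with 3 of the 5 lower than in control mice, and 32.9 to 44.1 in those given LA. Of 9 quiescent stellate cell markers 4 increased in control mice relative to ND-fed mice, with sums of 121 to 144 against 83.2 to 115 FPKM, and no adipocyte marker reached the tested level. Summed FPKM of 6 pericentral hepatocyte markers was 3861 to 4175 in ND-fed mice, 2183 to 3130 in control mice, 3601 to 4528 with HYA and 2012 to 3118 with LA. Of these 6 markers 2 were lower and 1 was higher in control against ND-fed mice. Summed FPKM of 6 periportal markers was 2278 to 2417 in ND-fed mice, 1451 to 1905 in control mice, 1757 to 1854 with HYA and 1408 to 1654 with LA. Of these 6 markers 3 were lower and 1 was higher in control against ND-fed mice. In the same comparison 2 of 6 sinusoidal endothelium markers were higher, and of 6 macrophage markers 2 were higher and 1 was lower. In bulk liver, fewer cells of a type and less RNA per cell cannot be told apart, and the part of these marker changes in the values below was not tested.

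The high-fat diet went with opposite changes within the pathway. In control against ND-fed mice Rdh16 and Rdh11, which encode enzymes that act between retinol and retinal, rose 1.73-fold each. The mRNAs for the retinoic acid hydroxylase Cyp26a1, the retinal reductase Dhrs3 and the carrier Rbp4 fell to 0.219, 0.631 and 0.824 of the ND mean. The other members, Lrat, Aldh1a1, Aldh1a7 and Cyp26b1, did not pass. With limma and Benjamini-Hochberg adjustment over all tested genes at 0.05, 5 of the 9 genes were called, 2 higher and 3 lower, beside 35.3% of all tested genes called, 16.2% higher and 19.1% lower. On the TPM scale 6 members were called, 5 higher (Aldh1a1, Aldh1a7, Rdh16, Rdh11 and Lrat) and 1 lower (Cyp26a1), and 83.8% of all called genes were higher, against 45.9% on the FPKM scale. Calls were thus common in the whole table. Of the 9 genes, 1 (Cyp26a1) also moved by more than 1 on the log2 scale, as did 3.88% of all genes. Ranges of the 2 groups did not overlap for 6 of the 9 genes (the 5 called and Lrat), beside 45.6% of all tested genes. The median member difference was −0.03 on the log2(FPKM + 1) scale, beside −0.04 over all genes.

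**Figure D1:**
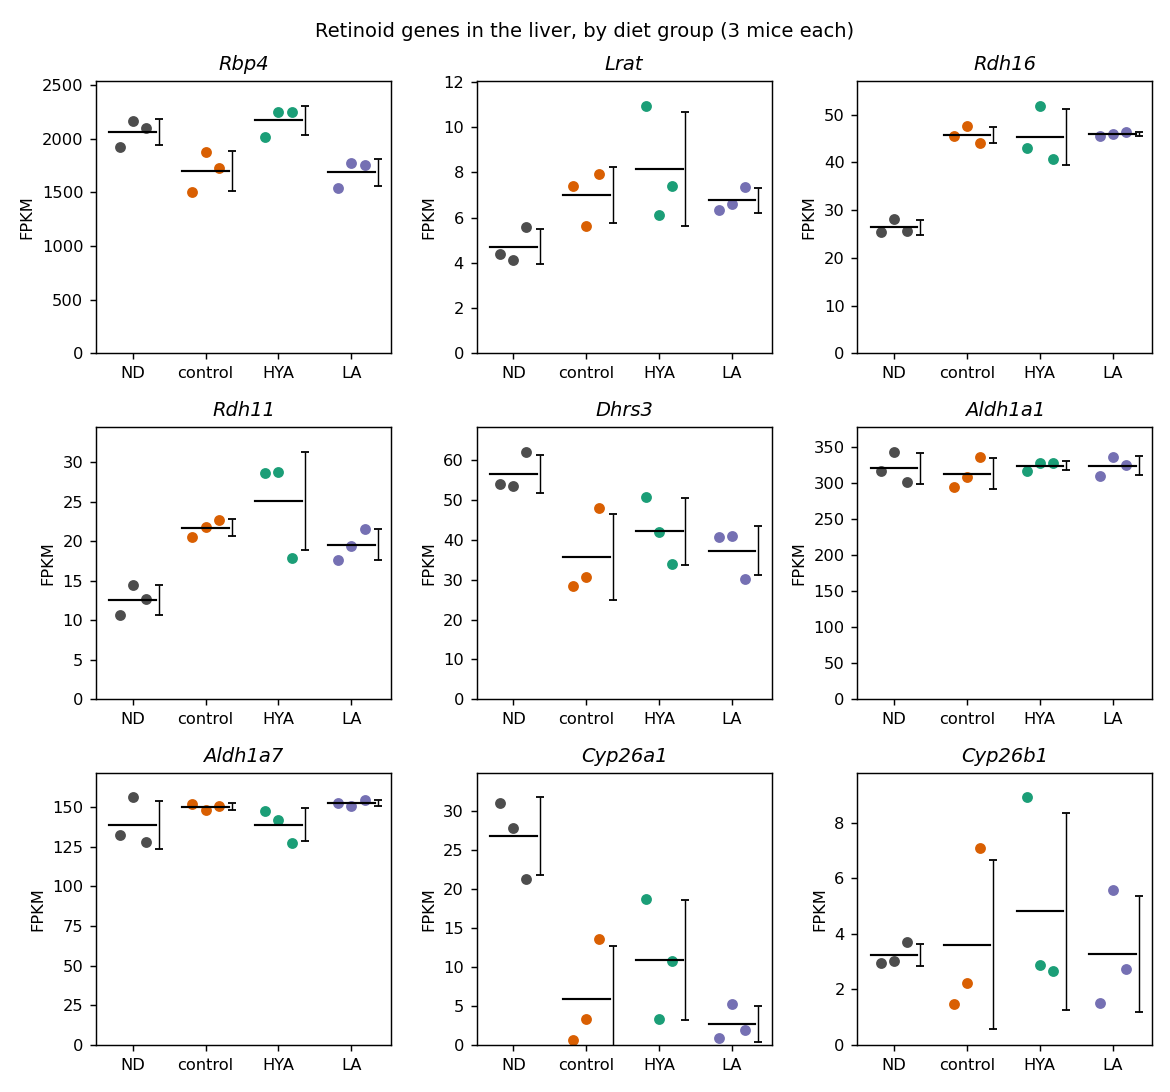
FPKM of the 9 genes (linear axes from 0) in each mouse of the 4 diet groups, with points in the order of replicate numbers 1 to 3, a line at the group mean and a bar of ± 1 SD, cut at 0 for Cyp26a1 in control mice. Rdh16 and Rdh11 were lower in the 3 ND-fed mice than in all 9 mice fed the high-fat diet, Cyp26a1 and Dhrs3 were higher there, and Aldh1a1 stayed between 294 and 343 FPKM.

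Rbp4 encodes the retinol carrier of plasma and was the most abundant member, with a mean of 1906 FPKM and rank 25 among all genes in the table. The gene (ENSMUSG00000024990, chr19:38116620-38125321, minus strand, GRCm38, protein-coding) had 1927, 2166 and 2099 FPKM in the ND-fed mice and 1501, 1877 and 1725 FPKM in the control mice. The HYA-treated mice had 2016, 2253 and 2247 FPKM, and the LA-treated mice 1543, 1771 and 1752 FPKM. Values of ND-fed and HYA-treated mice overlapped, as did those of control and LA-treated mice, and neither of the first groups overlapped with either of the second.

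The mean of Rbp4 was 2064 ± 123 FPKM in ND-fed and 1701 ± 189 FPKM in control mice (SD, n = 3), a difference of −0.28 on the log2(FPKM + 1) scale (SE 0.09, limma adjusted p = 0.0371). This call was lost in 8 of 20 other settings, among them the leaving out of ND mouse 2 (adjusted p = 0.115), ND mouse 3 (0.0892), control mouse 1 (0.129) or control mouse 3 (0.0663). On a TPM scale, which moved the median of all genes by 0.19 in this comparison, the difference of Rbp4 was −0.05 (adjusted p = 0.660), or −0.20 relative to that median.

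HYA-treated mice had 2172 ± 135 FPKM of Rbp4, 1.28-fold the control mean. The difference was 0.36 (95% interval 0.15 to 0.56, limma adjusted p = 0.0702), and all 3 HYA-treated mice were above all 3 control mice, as shown for one direction or the other in 21.6% of all tested genes. Against the LA-treated mice, at 1689 ± 127 FPKM, the difference was also 0.36 (95% interval 0.16 to 0.57, adjusted p = 0.0890). Against ND the LA-treated mice were lower by a difference of −0.29 (adjusted p = 0.0370), a call lost without ND mouse 2 (0.114), ND mouse 3 (0.0906), LA mouse 1 (0.134), LA mouse 2 (0.0511) or LA mouse 3 (0.0582). On the TPM scale this difference of Rbp4 was −0.06 (adjusted p = 0.564), or −0.20 relative to the median of all genes, and without the filter on low values its adjusted p was 0.153. LA-treated and control mice, which differed by −0.01 (95% interval −0.21 to 0.20), did not differ beyond their spread. In this fit both HYA comparisons stayed above the adjusted threshold of 0.05, and each passed in 2 of 20 other settings. The first reached 0.0301 without control mouse 2, where 653 of all tested genes were called, against 310 in the main fit. The second reached 0.0484 without control mouse 1, which enters it only through the shared error. There 229 of all tested genes were called, against 54 in the main fit.

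Lrat encodes the acyltransferase that makes retinyl esters, and was among the less abundant members (ENSMUSG00000028003, chr3:82892579-82903973, minus strand, protein-coding). It had 4.39, 4.14 and 5.59 FPKM in ND-fed mice and 7.41, 5.61 and 7.95 FPKM in control mice. HYA-treated mice had 10.9, 6.12 and 7.38 FPKM, and LA-treated mice 6.31, 6.61 and 7.37 FPKM. Every mouse fed the high-fat diet was above every ND-fed mouse, by a narrow gap of 5.61 against 5.59 FPKM between the nearest control and ND-fed mice.

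The mean of Lrat was 4.71 ± 0.776 FPKM in ND-fed mice, 6.99 ± 1.23 in control mice, 8.15 ± 2.50 in HYA-treated mice and 6.76 ± 0.545 in LA-treated mice (SD, n = 3). Control exceeded ND by 0.48 (SE 0.18, limma adjusted p = 0.0577), HYA exceeded ND by 0.65 (adjusted p = 0.0303) and LA exceeded ND by 0.45 (adjusted p = 0.0799). The call for HYA was lost without ND mouse 1 (0.0825), ND mouse 2 (0.102), HYA mouse 1 (0.0820) or HYA mouse 3 (0.0531), whereas control against ND passed without ND mouse 3 (0.0461) or control mouse 2 (0.0318). HYA differed from control by 0.17 (95% interval −0.22 to 0.57), so the 3 groups on the high-fat diet did not differ beyond their spread. Lrat is a stellate cell gene, and the sums of quiescent and activated stellate cell markers given above were also above those of ND-fed mice in control mice. With HYA the activated sums (16.6 to 22.7 FPKM) were below those of control mice (31.0 to 49.0 FPKM). The quiescent sums were 121 to 133 FPKM with HYA and 132 to 164 FPKM with LA. Whether the level of Lrat followed stellate cell content was not tested.

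Rdh16 encodes a microsomal dehydrogenase that acts on retinol (ENSMUSG00000069456, chr10:127801152-127846565, plus strand, protein-coding). It had 25.4, 28.1 and 25.7 FPKM in ND-fed mice and 45.6, 47.6 and 44.1 FPKM in control mice. HYA-treated mice had 43.1, 51.9 and 40.8 FPKM, and LA-treated mice 45.5, 45.9 and 46.5 FPKM. No mouse fed the high-fat diet was within the range of ND-fed mice, and the ranges of the control, HYA and LA groups overlapped.

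Control mice, at 45.7 ± 1.75 FPKM, exceeded ND-fed mice, at 26.4 ± 1.50 FPKM, by 0.77 (SE 0.08, limma adjusted p = 5.75e-05). The difference from ND was 0.75 with HYA and 0.78 with LA. HYA and control differed by −0.02 (95% interval −0.20 to 0.16), and HYA and LA by −0.03 (95% interval −0.21 to 0.15). Of the 150-base stretches of Rdh16 transcripts, 4.93% also occur in Rdh16f1, Rdh18-ps or Rdh9. A small part of its fragments could thus have been assigned to Rdh18-ps or Rdh9, whereas Rdh16f1 had 0 fragments in every mouse. Rdh18-ps overlaps Rdh16 on the same strand and had a mean of 0.701 FPKM.

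Rdh11 encodes a second oxidoreductase that acts between retinol and retinal (ENSMUSG00000066441, chr12:79174337-79192293, minus strand, protein-coding). Its values were 10.6, 14.4 and 12.6 FPKM in ND-fed mice and 20.6, 21.8 and 22.7 FPKM in control mice. HYA-treated mice had 28.6, 28.8 and 17.9 FPKM, and LA-treated mice 17.7, 19.4 and 21.6 FPKM. The 9 mice on the high-fat diet were all above the ND-fed mice, and 2 of the 3 HYA-treated mice were above every control and LA-treated mouse while the third was near the lowest LA-treated mouse.

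The mean of Rdh11 was 12.5 ± 1.89 FPKM in ND-fed and 21.7 ± 1.07 FPKM in control mice, a difference of 0.75 (SE 0.16, limma adjusted p = 0.00511). HYA-treated mice, at 25.1 ± 6.23 FPKM, exceeded ND by 0.92 (adjusted p = 0.00363), and LA-treated mice, at 19.5 ± 1.97 FPKM, by 0.61 (adjusted p = 0.0174, but 0.0636 without ND mouse 1 and 0.0623 without LA mouse 3). The difference between HYA and LA was 0.32 (95% interval −0.04 to 0.68, adjusted p = 0.350). The increases of Rdh16 and Rdh11 in control against ND-fed mice passed in all 20 other settings, leaving out of any single mouse included.

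Dhrs3 encodes the retinal reductase that returns retinal to retinol, and lies at chr4:144892827-144928209 on the plus strand (ENSMUSG00000066026, protein-coding). It had 54.0, 53.7 and 62.2 FPKM in ND-fed mice and 28.5, 30.6 and 48.1 FPKM in control mice. HYA-treated mice had 50.7, 42.1 and 33.8 FPKM, and LA-treated mice 40.7, 40.9 and 30.2 FPKM. The lowest ND-fed mouse was above every mouse on the high-fat diet, and control mouse 3 and HYA mouse 1 were the nearest to it.

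The mean of Dhrs3 was 56.6 ± 4.85 FPKM in ND-fed and 35.7 ± 10.8 FPKM in control mice, a difference of −0.68 (SE 0.20, limma adjusted p = 0.0222). LA-treated mice, at 37.3 ± 6.16 FPKM, were lower than ND-fed mice by a difference of −0.60 (adjusted p = 0.0427), and HYA-treated mice, at 42.2 ± 8.45 FPKM, differed from ND by −0.43 (adjusted p = 0.167). HYA and control differed by 0.25 (95% interval −0.19 to 0.70, adjusted p = 0.561). The call in control mice was lost without ND mouse 3 (adjusted p = 0.0716), control mouse 1 (0.0898) or control mouse 2 (0.0699), and on the TPM scale (0.0896). The call in LA-treated mice was lost without any single one of the ND-fed or LA-treated mice, with adjusted p from 0.0588 to 0.148. The ratio of Rdh16 to Dhrs3, a ratio of FPKM values within each mouse, was 0.469 ± 0.0552 in ND-fed mice and 1.36 ± 0.382 in control mice, and was 1.10 ± 0.214 with HYA and 1.26 ± 0.244 with LA.

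Cyp26a1, which encodes the main retinoic acid hydroxylase of the liver, and its relative Cyp26b1 are the members that act on retinoic acid itself. The sequences before the transcription starts of these genes and of Dhrs3 are shown because the same 3 mice on the high-fat diet had the highest values of their groups for all 3 mRNAs, as described below. Each is 100 bases of RefSeq sequence on GRCm38.p6, 5′ to 3′ on the strand of the gene, and none overlaps an annotated exon. Capitals mark, on either strand, the nuclear receptor hexamer AGGTCA or one of the related forms searched, which were AGTTCA as well as GGGTCA and also GGTTCA. Cyp26a1 was taken from chr19:37697698-37697797 (plus strand), Dhrs3 from chr4:144892727-144892826 (plus strand) and Cyp26b1 from chr6:84593909-84594008 (minus strand).
Cyp26a1: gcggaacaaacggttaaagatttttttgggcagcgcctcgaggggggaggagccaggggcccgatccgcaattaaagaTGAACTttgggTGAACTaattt
Dhrs3: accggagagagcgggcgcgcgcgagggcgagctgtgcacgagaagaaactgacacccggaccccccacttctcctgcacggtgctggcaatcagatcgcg
Cyp26b1: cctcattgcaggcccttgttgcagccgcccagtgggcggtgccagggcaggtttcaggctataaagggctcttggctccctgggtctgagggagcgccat

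The Cyp26a1 window holds AGTTCA repeated in the same direction with a spacing of 5 bases, read on the opposite strand as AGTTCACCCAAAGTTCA, at bases 32 to 16 before the start. Direct repeats of these hexamers with a spacing of 5 occurred in 29 of 32851 promoter windows of 250 bases (0.0883%). Among the 14 windows of the 9 genes, that of Cyp26a1 was the only one with such a repeat. A single hexamer occurred in 38.6% of all windows, and none was in the windows of Dhrs3 or Cyp26b1. A match describes the letters of a window and not binding, which was not measured.

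Cyp26a1 (ENSMUSG00000024987, chr19:37697808-37701528, plus strand, protein-coding) had 31.1, 27.9 and 21.3 FPKM in ND-fed mice and 0.629, 3.33 and 13.6 FPKM in control mice. HYA-treated mice had 18.6, 3.33 and 10.7 FPKM, and LA-treated mice 0.926, 5.26 and 1.90 FPKM. All ND-fed mice were above all mice on the high-fat diet, among which the values spanned a 29.6-fold range. The SD within groups was 1.07 on the log2 scale, larger than that of 99.9% of tested genes, for which the median was 0.11.

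The mean of Cyp26a1 was 26.7 ± 5.00 FPKM in ND-fed and 5.86 ± 6.87 FPKM in control mice, a difference of −2.55 (SE 0.75, limma adjusted p = 0.0229). LA-treated mice, at 2.70 ± 2.28 FPKM, were lower than ND-fed mice by a difference of −3.07 (adjusted p = 0.0105), which passed in all 20 other settings. HYA-treated mice, at 10.9 ± 7.66 FPKM, differed from ND by −1.46 (adjusted p = 0.210). The differences of HYA-treated mice from control mice (1.09, 95% interval −0.57 to 2.75, adjusted p = 0.492) and from LA-treated mice (1.61, 95% interval −0.05 to 3.27, adjusted p = 0.304) were within the spread of the mice. The call in control mice was lost without ND mouse 1 (adjusted p = 0.0618), ND mouse 2 (0.0614), control mouse 1 (0.0887) or control mouse 2 (0.0549).

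Cyp26b1 (ENSMUSG00000063415, chr6:84571414-84593908, minus strand, protein-coding) had 2.97, 3.02 and 3.69 FPKM in ND-fed mice and 1.49, 2.24 and 7.11 FPKM in control mice. HYA-treated mice had 8.91, 2.89 and 2.65 FPKM, and LA-treated mice 1.50, 5.57 and 2.73 FPKM. Each group on the high-fat diet held 1 mouse well above the other 2 and above the ND-fed mice, and all groups overlapped. The SD of Cyp26b1 within groups was 0.70, larger than that of 99.0% of tested genes, and the difference of control from ND-fed mice was −0.07 (95% interval −1.16 to 1.03). The longest reading frames of Cyp26a1 and Cyp26b1 were 55.8% identical, and neither transcript shares a 150-base stretch with another gene.

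In each group on the high-fat diet, the mouse with the highest Cyp26b1 also had the highest Cyp26a1 and Dhrs3. These were control mouse 3, HYA mouse 1 and LA mouse 2, the last by only 40.9 against 40.7 FPKM of Dhrs3 in LA mouse 1. The ND-fed mice did not share this pattern. Among them mouse 3 was highest in Cyp26b1 and Dhrs3 but lowest in Cyp26a1. Across the 9 mice on the high-fat diet, the correlation of Cyp26a1 with Cyp26b1 on the log2(FPKM + 1) scale was r = 0.856 (exact permutation p = 0.00460, adjusted over 36 pairs of members 0.0827) with rho = 0.867 (exact permutation p = 0.00451, adjusted 0.0992). It was 0.642 without the 2 mice farthest from the median of Cyp26a1, and 0.890 after centring within groups (exact permutation p = 0.0185, adjusted 0.667). Cyp26b1 and Dhrs3 had r = 0.764 (exact permutation p = 0.0202, adjusted 0.243) and rho = 0.833 (exact permutation p = 0.00827, adjusted 0.0992). The coefficient was 0.729 without the 2 mice farthest from the median of Dhrs3, control mouse 1 and LA mouse 3. It was 0.752 within groups (exact permutation p = 0.0602). Cyp26a1 and Dhrs3 had r = 0.651 (exact permutation p = 0.0643, adjusted 0.378) and rho = 0.800 (exact permutation p = 0.0138, adjusted 0.124). Their coefficient was 0.426 without the same 2 mice, chosen by Dhrs3, and 0.629 within groups (exact permutation p = 0.171). None of the 3 relations passed after adjustment. Rbp4 had another order, mouse 2, mouse 3, mouse 1 from high to low, in each of the 4 groups.

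**Figure D2:**
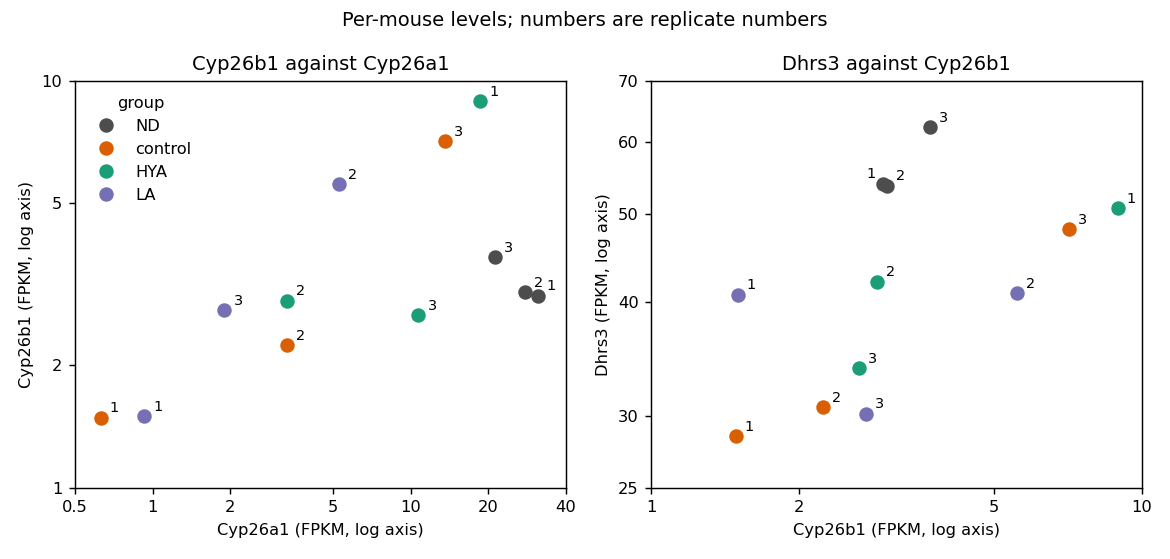
FPKM of Cyp26b1 against Cyp26a1 (left) and of Dhrs3 against Cyp26b1 (right) in each of the 12 mice, on log axes, with colours for diet groups and numbers for replicates. Control mouse 3, HYA mouse 1 and LA mouse 2 lie highest within their groups for Cyp26a1, Cyp26b1 and Dhrs3, and the ND-fed mice have high Cyp26a1 and Dhrs3 at 2.97 to 3.69 FPKM of Cyp26b1.

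Of the 36 pairs of members, 27 had a positive coefficient and 1 passed the adjusted threshold. This pair was Rbp4 and Aldh1a7, with r = −0.776 (exact permutation p = 0.00126, adjusted 0.0452) and rho = −0.833 (exact permutation p = 0.00827, adjusted 0.0992). The coefficient was −0.718 without the 2 mice farthest from the median of Rbp4. Within groups the coefficient was −0.410 (exact permutation p = 0.208), so the relation was not shown there.

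Aldh1a1 and Aldh1a7 lie 49.5 kb apart on chromosome 19, on opposite strands. Aldh1a1 encodes a retinal dehydrogenase that forms retinoic acid, and Aldh1a7 encodes its closest relative. Sequences before a start of each are shown because the genes are near copies and were the members with the narrowest ranges over the 12 mice. They are 100 bases each from RefSeq on GRCm38.p6, chr19:20601861-20601960 (plus strand) for Aldh1a1 and chr19:20727564-20727663 (minus strand) for Aldh1a7, and capitals mark the 94 positions that are identical. RefSeq gives 2 starts for Aldh1a1, and the sequence is that before the more downstream one, which lies inside the gene as the deposited table delimits it.
Aldh1a1: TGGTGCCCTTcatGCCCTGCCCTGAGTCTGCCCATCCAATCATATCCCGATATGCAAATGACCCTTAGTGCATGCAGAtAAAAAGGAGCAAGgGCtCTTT
Aldh1a7: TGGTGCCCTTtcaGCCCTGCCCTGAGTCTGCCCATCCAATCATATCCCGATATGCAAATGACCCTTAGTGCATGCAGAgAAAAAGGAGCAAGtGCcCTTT

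The longest reading frames of Aldh1a1 and Aldh1a7, 1506 bases each, were 91.6% identical. No 150-base stretch was shared between their transcripts, but shorter alignments could not be examined.

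Aldh1a1 (ENSMUSG00000053279, chr19:20492715-20643462, plus strand, protein-coding) had 316, 343 and 301 FPKM in ND-fed mice and 294, 308 and 336 FPKM in control mice. HYA-treated mice had 317, 327 and 327 FPKM, and LA-treated mice 309, 336 and 325 FPKM. All groups overlapped, and the highest of the 12 values was 1.17-fold the lowest. Control differed from ND by −0.03 (95% interval −0.18 to 0.11, limma adjusted p = 0.727), a direction that turned on the TPM scale, where the difference was 0.20 (adjusted p = 0.0261) and 0.05 relative to the median of all genes. HYA differed from control by 0.05 (95% interval −0.09 to 0.20) and from LA by 0.00314 (95% interval −0.14 to 0.15). An antisense gene, C730002L08Rik, overlaps Aldh1a1 and had a mean of 0.483 FPKM.

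Aldh1a7 (ENSMUSG00000024747, chr19:20692953-20727562, minus strand, protein-coding) had 132, 156 and 128 FPKM in ND-fed mice and 152, 148 and 151 FPKM in control mice. HYA-treated mice had 148, 142 and 127 FPKM, and LA-treated mice 153, 151 and 154 FPKM. The HYA-treated mice were all below the control and LA-treated mice, by less than 1 FPKM at the nearest values of HYA and control. Control differed from ND by 0.12 (adjusted p = 0.257 by limma), and by 0.35 on the TPM scale (adjusted p = 0.00619), and it passed without ND mouse 2 (0.0413). HYA differed from control by −0.11 (95% interval −0.28 to 0.06, adjusted p = 0.477) and from LA by −0.14 (95% interval −0.31 to 0.03, adjusted p = 0.397). The ratio of Aldh1a7 to Aldh1a1 in FPKM averaged 0.433 ± 0.0193 with the normal diet, 0.483 ± 0.0347 with the high-fat diet alone, 0.430 ± 0.0387 with HYA and 0.473 ± 0.0224 with LA (SD, n = 3).

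HYA and LA were given at the same dose for the same time, and the comparison between them answers whether the hydroxylated product and its parent went with different levels of these mRNAs. In HYA-treated against control mice none of the 9 genes was called by limma, beside 2.8% of all tested genes, and 1 member (Rbp4) had an unadjusted p under 0.05, beside 18.5%. None was called in LA-treated against control mice, in which limma called 0% of all tested genes, and no member had an unadjusted p under 0.05, beside 2.65% of all tested genes. None was called in HYA- against LA-treated mice either, beside 0.487% of all tested genes, and Rbp4 alone had an unadjusted p under 0.05, beside 17.2%. Ranges did not overlap for Rbp4 and Aldh1a7 in HYA-treated against control mice (2 of 9 genes, beside 21.6%) and against LA-treated mice (2 of 9, beside 25.2%), and all 9 overlapped between LA-treated and control mice, beside 7.55% of all genes without overlap. voom on the recovered fragments also called no member in these 3 comparisons, nor did the TPM scale, on which the share of called genes that were higher was 19.2% against 56.1% for HYA against control and 17.9% against 48.1% for HYA against LA. The median member difference was 0.17 in HYA against control, −0.01 in LA against control and 0.20 in HYA against LA, beside medians of 0.02, 0.00 and 0.01 over all genes. The intervals given for each gene were narrow for Rdh16, Aldh1a1 and Aldh1a7 and wide for Cyp26a1 and Cyp26b1, which in each of the 3 comparisons reached past a difference of 1 on the log2 scale (2-fold).

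**Figure D3:**
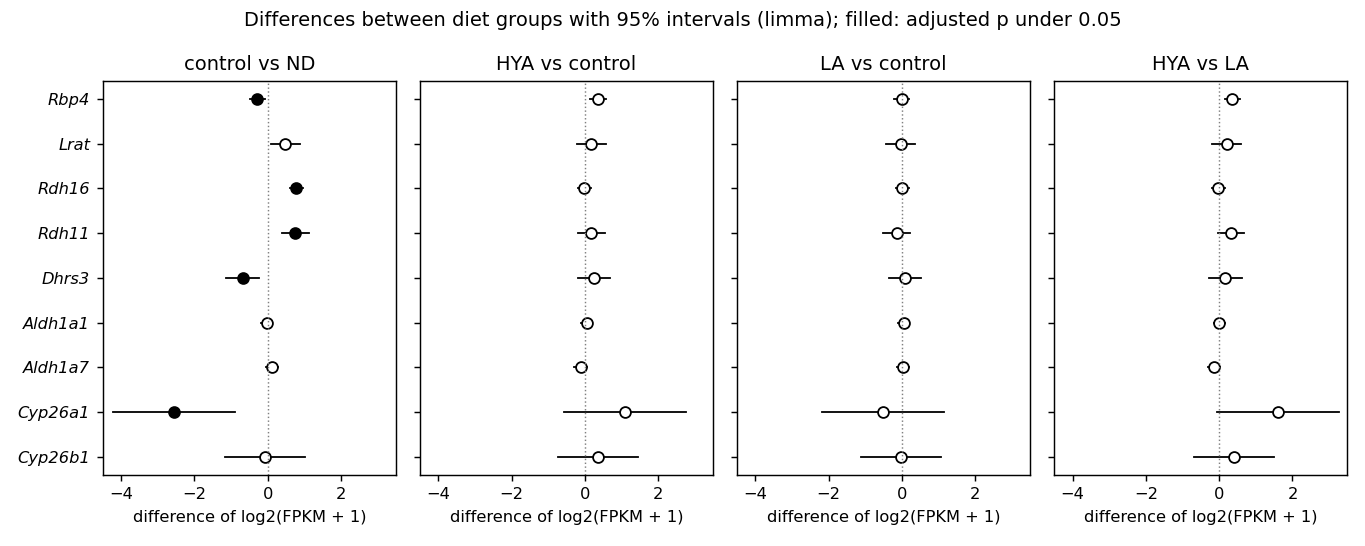
Differences of the 9 genes on the log2(FPKM + 1) scale (points) with 95% intervals (lines) in control against ND-fed, HYA-treated against control, LA-treated against control and HYA- against LA-treated mice, filled where the adjusted p was under 0.05. In control against ND-fed mice 5 genes are filled, and none is in the other 3 panels.

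Compared with ND-fed mice, HYA-treated mice had 3 members called, all higher (Lrat, Rdh16 and Rdh11), beside 16.6% of all tested genes called and 8.72% called higher. Their ranges did not overlap for 5 members, Dhrs3 and Cyp26a1 being the others, beside 35.9%. LA-treated mice had 5 called (Rdh16 and Rdh11 higher, Rbp4, Dhrs3 and Cyp26a1 lower), beside 31.1% called, 14.4% higher and 16.6% lower, and ranges did not overlap for 6 members, beside 47% of all genes. On the TPM scale 6 members were called in LA-treated mice, 5 higher and 1 lower, with Rbp4 and Dhrs3 lost (adjusted p of 0.564 and 0.159), and 85.3% of all called genes were higher, against 46.4% on the FPKM scale. In HYA-treated against ND-fed mice the same 3 members were called on the TPM scale, with 79.0% of all called genes higher, against 52.6%. These comparisons share the ND-fed mice. The genes called in control or LA-treated but not in HYA-treated mice, namely Rbp4, Dhrs3 and Cyp26a1, were not shown to differ between HYA-treated and control mice, since the adjusted p-values of that difference were 0.0702, 0.561 and 0.492.

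Other genes of the pathway were taken from 6 lists with 45 genes, 31 of which were tested. In control against ND-fed mice 7 were higher and 6 lower, beside 16.2% higher and 19.1% lower among all tested genes. Among the carriers and uptake genes (4 of 9 tested), the fatty acid and retinoic acid carrier Fabp5 rose by a log2 difference of 1.22 (limma adjusted p = 0.00395). In the same list, the lipoprotein receptor Scarb1 was lower (−0.30, adjusted p = 0.00184, and 0.281 on the TPM scale), as was Ttr, the plasma partner of RBP4 and one of the hepatocyte markers above (−0.42, adjusted p = 0.00233, and 0.0595 without the filter on low values). Ttr fell from 4172 ± 50.3 to 3124 ± 306 FPKM between ND-fed and control mice.

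Among the genes of ester storage, hydrolysis and carotenoid cleavage, all 6 of which were tested, Pnpla3, a retinyl ester and triglyceride hydrolase, had the largest difference of any pathway gene in control against ND-fed mice. It had 0.331, 1.22 and 0.647 FPKM in ND-fed and 11.7, 7.98 and 10.2 FPKM in control mice, a difference of 2.68 (limma adjusted p = 1.91e-05) and a 13.6-fold ratio of means. The β-carotene cleaving enzyme Bco1 (0.71, adjusted p = 0.000292) and the lipoprotein lipase Lpl (0.63, adjusted p = 0.0140) were also higher, and Bco2 was lower (−0.38, adjusted p = 0.00642, and 0.121 on the TPM scale). Lpl lost its call without ND mouse 2 (adjusted p = 0.0516) or control mouse 1 (0.0597). LA-treated and HYA-treated mice had Pnpla3 at 14.3 ± 5.08 and 8.51 ± 1.24 FPKM.

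Among the retinol and retinal oxidoreductases (11 of 16 tested), 1 was higher and 3 were lower in control against ND-fed mice. The alcohol dehydrogenase Adh4, which also oxidizes retinol, had 159, 144 and 140 FPKM in ND-fed mice and 49.7, 64.9 and 63.9 FPKM in control mice (difference −1.30, limma adjusted p = 8.69e-06). Rdh16f2, a relative of Rdh16, had 62.9, 61.8 and 61.8 FPKM in ND-fed mice and 15.3, 26.3 and 19.5 FPKM in control mice (−1.59, adjusted p = 6.67e-05). Its direction was thus opposite to that of Rdh16. Rdh7 was lower (−0.52, adjusted p = 0.000289) and Rdh9 higher (0.51, adjusted p = 0.0323), the latter with a call that was lost in 6 of 20 other settings, with adjusted p up to 0.0980 without control mouse 1.

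In HYA-treated against control mice, 2 of the 31 pathway genes were higher and 1 was lower, beside 2.8% of all tested genes called. HYA-treated mice had 82.3, 90.9 and 77.9 FPKM of Adh4, all above the control mice and below the ND-fed mice (difference from control 0.49, limma adjusted p = 0.0357), and 34.5, 35.5 and 34.0 FPKM of Rdh16f2 (0.77, adjusted p = 0.0442). Tgm2, a transglutaminase gene that responds to retinoic acid, was lower (−0.58, adjusted p = 0.0440), with 48.5, 40.0 and 49.0 against 76.6, 56.1 and 75.3 FPKM. The 3 calls were near the threshold and were lost in a fit of only these 2 groups (adjusted p of 0.156 for Adh4, 0.151 for Rdh16f2 and 0.163 for Tgm2). That fit called 0 of the 11083 tested genes, against 310 in the fit of all 4 groups. The 3 calls were also lost without control mouse 1 (29 of all tested genes called), at 0.103 for Adh4, 0.152 for Rdh16f2 and 0.176 for Tgm2. Without control mouse 3 (80 of all tested genes called) they were lost at 0.0595, 0.104 and 0.114 in the same order. Without 1 of the HYA-treated mice the adjusted p-values of these 3 genes lay between 0.0715 and 0.171 (without HYA mouse 2, 0 of all tested genes were called). ND-fed and LA-treated mice enter this comparison through the shared error. Tgm2 lost its call without any single one of them, with adjusted p from 0.0515 to 0.0635. Rdh16f2 lost its call without any single ND-fed mouse or LA mouse 3 (adjusted p up to 0.0623). Adh4 lost its call without ND mouse 2, LA mouse 2 or LA mouse 3 (adjusted p up to 0.0575). Of 20 other settings, the call was lost in 11 for Adh4, 13 for Tgm2 and 11 for Rdh16f2. No pathway gene was called in LA-treated against control mice (0% of all tested genes) or in HYA- against LA-treated mice (0.487% of all tested genes). In the latter, Tgm2 (adjusted p = 0.0700) passed on the TPM scale (0.0459), by voom (0.0445) and without control mouse 2 (0.0249). Rdh16f2 (0.0772) passed without control mouse 1 (0.0350) or control mouse 2 (0.0286), and Lpl (0.0892) without control mouse 2 (0.0281). Of 20 other settings, Tgm2 passed in 4, Rdh16f2 in 3 and Lpl in 2. Control mice enter the comparison of HYA with LA only through the shared error. Without control mouse 1 it called 229 of all tested genes and without control mouse 2 it called 259, against 54 in the main fit.

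**Figure D4:**
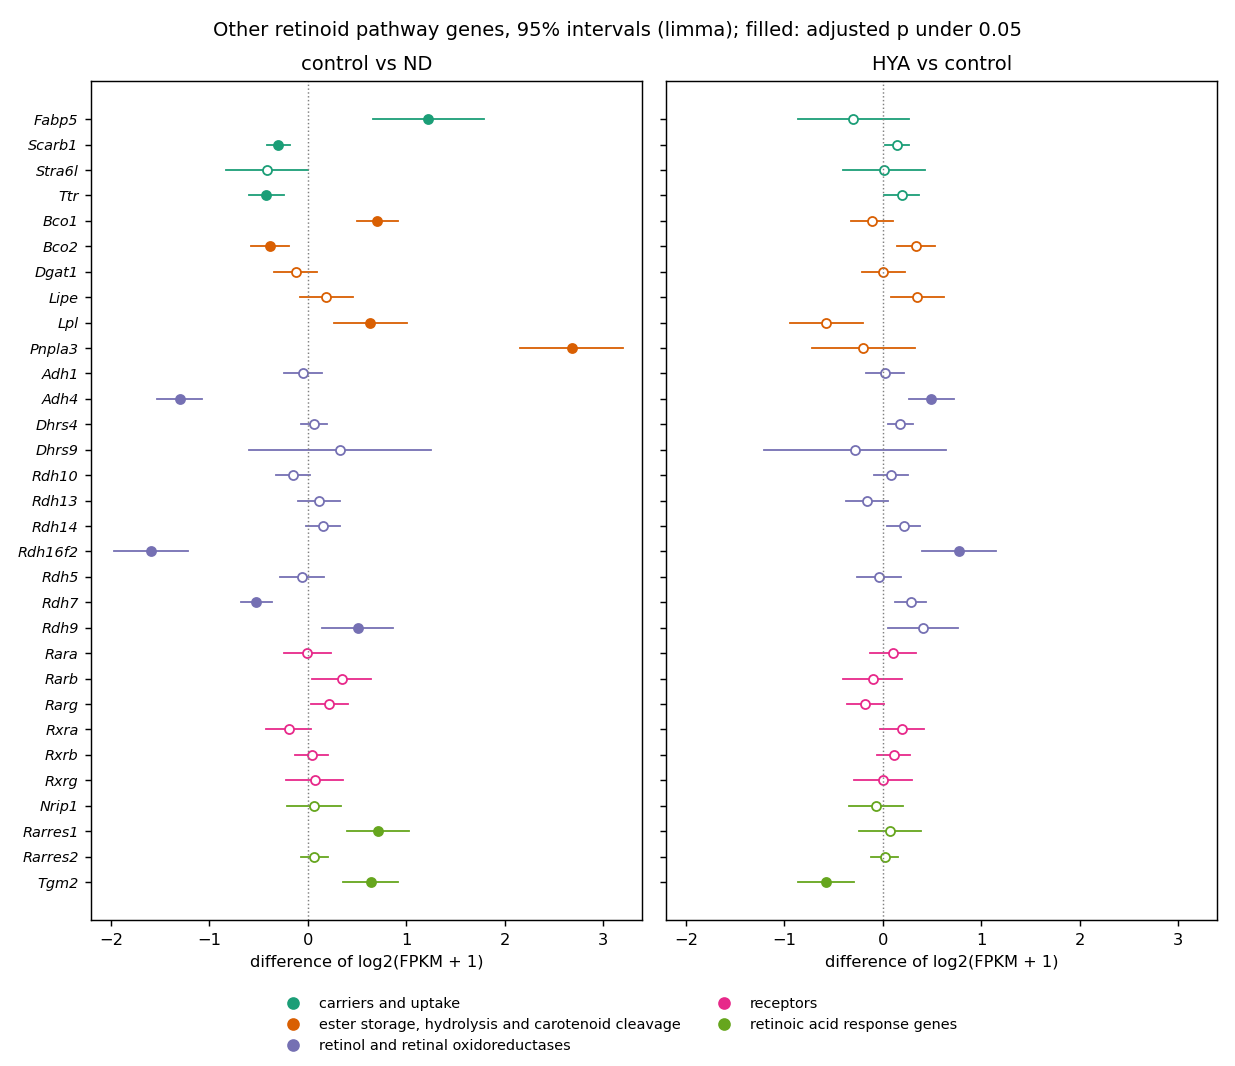
Differences of the 31 other pathway genes on the log2(FPKM + 1) scale (points) with 95% intervals (lines), in control against ND-fed mice (left) and HYA-treated against control mice (right), coloured by list and filled where the adjusted p was under 0.05. Adh4 and Rdh16f2 lie to the left of 0 in the first panel and to the right in the second, and Tgm2 the other way round.

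Of the retinoic acid response genes (4 of 5 tested), Rarres1 (0.72, limma adjusted p = 0.00302) and Tgm2 (0.64, adjusted p = 0.00287) increased in control mice relative to ND-fed mice, whereas the members Cyp26a1 and Dhrs3 were lower. None of the 6 receptor genes was called in any of the 6 comparisons. The most abundant was Rxra, with 91.3 ± 3.22 FPKM on the normal diet, 79.9 ± 9.20 in control mice, 91.4 ± 4.99 with HYA and 75.5 ± 9.90 with LA. The remaining list, other retinal dehydrogenases and CYP26 genes, had no gene at the tested level, with means of 0.132 FPKM for Aldh1a2, 0.106 for Aldh1a3 and 0.076 for Cyp26c1.

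The genes most like each member over the 12 mice, by Pearson's r on the log2(FPKM + 1) scale, are given as a description, since the ND-fed mice stand apart for several of them. They were Paox (0.978) and Iqgap2 (0.975) for Rbp4, Slc43a3 (0.933) and Robo4 (0.894) for Lrat, and Dntt (0.981) and Chrna4 (0.980) for Rdh16. For Rdh11 they were Cyp51 (0.961) and Nsdhl (0.958), which encode enzymes of cholesterol synthesis. For Dhrs3 they were Fgg (0.979), a fibrinogen chain gene, and Coq8a (0.974), and for Cyp26a1 Pon3 (0.951) and Ppp4r4 (0.939). The coefficients were lower for Aldh1a1, with Pabpn1 (0.899) and Bet1 (0.837), for Aldh1a7, with Fam83h (0.876) and Prmt6 (0.875), and for Cyp26b1, with Med31 (0.877) and Sp1 (0.834). Over the 9 mice on the high-fat diet the coefficient was 0.989 for Paox with Rbp4, 0.927 for Cyp51 with Rdh11 and 0.742 for Dntt with Rdh16.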

How the data were processed

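Liver RNA of 12 mice (3 per group) was sequenced from both ends, with 150-base reads per the methods. The authors deposited FPKM values of each mouse in 1 table, with gene coordinates on GRCm38. The methods name TPM, but the columns summed to 342146 to 429286 and were therefore taken as FPKM. The processing notes of the submitters name fastp, HISAT2 2.0.5 and featureCounts 1.5.0-p3. Depth was recovered from the smallest step of each column.

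Here genes whose mean reached 1 FPKM were tested in R 4.3.3 with limma 3.58.1 on log2(FPKM + 1), in 1 fit of all 4 groups with empirical Bayes trend, two-sided, for 6 comparisons, with Benjamini-Hochberg adjustment over the 11083 genes. Scripts were tested on simulated data. Promoters were 250 bases before RefSeq starts (GRCm38.p6), and all 9 members matched.

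The genes named are all members, the called genes of the pathway lists, the most abundant gene of a list without a call, and the 2 genes most correlated with each member. Members and lists were chosen with earlier results of these data known, and 1 pathway gene is not reported here. The alternatives are pseudocount 0.1, no filter or 10 mean fragments, TPM, median-ratio factors, voom on recovered fragments, 2-group fits, a fold threshold, a replicate block and leaving out each mouse.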

Additional observations from a re-analysis of the deposited data

How the results depend on the processing

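Each group held 3 mice. On the TPM scale members of high and low abundance changed calls in control against ND-fed mice: Rbp4 and Dhrs3 lost theirs, and Aldh1a1, Aldh1a7 and Lrat gained one. The number of members called in control against ND-fed mice was 5, in LA-treated against ND-fed mice 5 and in HYA-treated against ND-fed mice 3. With a log2 difference past 1 required, these numbers were 1, 1 and 0. Without a filter on low values, where many more genes enter the adjustment, they were 2 (control) and 3 (LA). Leaving out 1 mouse gave 2 to 6 for control against ND, with 2 (Rdh16 and Rdh11) without control mouse 1. It gave 2 to 6 for LA against ND, with 3 without ND mouse 1, ND mouse 3, LA mouse 1 or LA mouse 2 and 2 without LA mouse 3, and 2 to 3 for HYA against ND. For HYA against control and HYA against LA it gave 0 to 1, the 1 being Rbp4, and for LA against control 0 to 0. A replicate block, for which the labels give no pairing, gave 1 for HYA against control (Rbp4, adjusted p = 0.0131) and 1 for HYA against LA (Rbp4, 0.0269). Deviations of mice with the same number correlated at −0.40 to 0.29, and 6 of 12 mice correlated best with their own number, so the numbers were not taken as pairs. Of 1080 recomputed member values, 1015 kept their side of the threshold, 44 lost it, 20 gained it and 1 reversed, that of Aldh1a1 in control against ND on the TPM scale (0.20). Among the 1015 were 46 values that changed sign and were called neither before nor after. The Lrat difference in control against ND gained a call in 8 of 20 settings, with adjusted p of 0.0142 to 0.167. The cause of these shifts was not tested.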
